A study of Mus musculus with 18 samples.

Results

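Parental 4T1 cells given TGFb1 for 24 h were compared with parental 4T1 cells given fresh medium alone. 4T1 is a mouse mammary carcinoma line that came from a BALB/c tumour and forms metastases, and TGFb1 is a secreted cytokine. The comparison rests on 6 of the 18 libraries of the series, chosen by their titles. In 3 of them the medium was replaced by RPMI with 2 ng/mL recombinant human TGFb1, and in the other 3, called untreated here, by RPMI alone. Both groups had been kept in RPMI with fetal calf serum and antibiotics, and RNA of both was taken 24 h after the change of medium. The labels do not say whether the fresh medium held serum. Each TGFb1 library shares a code in its title with 1 untreated library, which gives 3 pairs. What a code marks, and whether the libraries came from separate cultures, is not stated, so p-values measure the spread between these libraries, which may be technical. A last comparison adds 6 libraries from puromycin-selected 4T1 lines grown on plastic: 3 from a stable line with a lentiviral vector for Wisp1 and 3 from a stable line with the empty vector (EV).

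TGF-beta ligands leave the cell in a latent form, held by latent TGF-beta binding proteins, and are released by integrins, thrombospondin or proteases. The active ligand brings a type II and a type I receptor together, and the type I receptor phosphorylates SMAD2 and SMAD3, which enter the nucleus with SMAD4 and act on target genes, some of which encode inhibitors of the pathway. In mammary epithelium TGF-beta is known for slowing proliferation, for raising matrix production, and for epithelial to mesenchymal transition, in which cells give up junctions and gain mesenchymal genes.

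The 6 parental libraries held 67635771 to 85429477 gene counts each, and 14874 of 34591 gene symbols passed the filter on low counts. With the pairs as a block, 6672 genes (44.9%) had an adjusted p under 0.05 (edgeR quasi-likelihood F test, Benjamini-Hochberg over all genes tested), 3326 of them higher (22.4%) and 3346 lower (22.5%) with TGFb1. A gene that passed this threshold is named called, higher or lower below. Of the called genes, 1452 (9.76% of those tested) changed by at least 2-fold, 777 higher and 675 lower. Without the block 1645 genes (11.1%) were called, 913 higher (6.14%) and 732 lower (4.92%), and all 1645 were among the 6672. Without the second pair the blocked fit called 4344 genes. The pairs differed from each other: the title code itself was called in 7513 genes (50.5%). The TGFb1 and untreated libraries did not overlap for 2315 genes that were higher (15.6%) and 2233 that were lower (15%). Within pairs, 6663 of the 6672 called genes moved the same way 3 times. The calls rest on these same pairs, so this agreement is no separate support for them. The median log2 change of all genes tested was −0.0069. Levels below are in CPM, counts scaled to a common library size by TMM over these 6 libraries, with pairs in the order 1, 2 and 3.

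The epithelial origin of the line showed in its markers. The 10 epithelial identity markers summed to 3290 to 5649 CPM in the TGFb1 libraries and to 3975 to 6118 CPM in the untreated ones, with 1 called higher and 5 lower (0 and 0 without the block). The 16 leukocyte markers summed to 19.2 to 31.7 CPM with TGFb1 and 12.3 to 27.6 CPM without, and Cd3e and Nkg7 had no count in any library. Of the 6 leukocyte markers tested, 3 were higher and 1 lower (2 and 1 without the block), with log2 changes from −1.95 to 3.96. Csf1r, the receptor of macrophage colony-stimulating factor, had 1.83, 2.096 and 3.37 CPM with TGFb1, against 0.111, 0.0938 and 0.304 CPM untreated. Of the markers not tested, Tyrobp and Laptm5 had 1 count each over all 6 libraries and Itgam had 34. The 11 endothelial markers came to 0.707 to 0.936 CPM with TGFb1 and 0.591 to 0.802 CPM untreated. The 13 fibroblast markers summed to 111.6 to 142.6 CPM with TGFb1, against 50.5 to 69.7 CPM untreated, with 4 of 8 tested members higher and 0 lower (3 and 0 without the block) and Thy1 at no count. In bulk RNA, fewer cells of a type and less RNA per cell cannot be told apart, and the part of such markers in the matrix and immune results below was not tested.

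The ligand arm of the pathway was higher for most of its members. Of 13 tested genes for ligands and activators, 9 were higher and 2 lower (6 and 0 without the block). Tgfb2, 1 of the 3 ligand genes, had 26.4, 21.2 and 20.1 CPM in the TGFb1 libraries and 6.37, 5.47 and 5.98 CPM in the untreated ones. The groups lay far apart, and the rise was 3.78-fold (log2 change 1.92 ± 0.09 SE, adjusted p = 2e-05). Tgfb1 itself was not called: it had 55.9, 52.97 and 35.1 CPM in TGFb1 libraries and 54.7, 50.97 and 23.7 CPM in untreated ones, which overlap (log2 change 0.21 ± 0.11 SE, adjusted p = 0.17). Furin, the protease that cleaves the ligand precursor, had 379.6, 300.1 and 291 CPM with TGFb1 and 117, 100.4 and 88.01 CPM untreated, a 3.18-fold rise (log2 change 1.67 ± 0.05 SE, adjusted p = 7.3e-06). The latent binding protein genes divided: Ltbp2 was 2.99-fold higher, Ltbp1 1.59-fold and Ltbp3 1.2-fold, whereas Ltbp4 was 1.38-fold lower. Among activators, thrombospondin 1 (Thbs1) rose 2.57-fold, and the integrin chains that free latent TGF-beta, Itgav and Itgb6, rose 1.45-fold and 4.15-fold, while Itgb8 was not called (adjusted p = 0.63). Tgfb3, a ligand gene, was 1.61-fold higher. Lrrc32, which tethers latent ligand at the cell surface, was 1.88-fold lower at a low level of 0.409 to 0.878 CPM with TGFb1 and 0.6803 to 1.903 CPM untreated, with overlapping groups. Tgfb3, Ltbp3, Ltbp4, Itgb6 and Lrrc32 were not called without the block (adjusted p = 0.14, 0.12, 0.076, 0.062 and 0.3), and Lrrc32 was not called without the second pair (adjusted p = 0.086).

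Receptor genes were called at a share near the 44.9% of all genes: of 11 tested, 3 were higher and 2 lower (2 and 1 without the block, and 3 and 4 with scaling by library totals). The co-receptor gene Tgfbr3, which presents ligand, fell to 0.695, 0.782 and 1.45 CPM with TGFb1, against 3.33, 2.68 and 4.06 CPM untreated (log2 change −1.82 ± 0.18 SE, adjusted p = 0.00036), with no overlap. The type II receptor gene Tgfbr2 was 1.43-fold lower (log2 change −0.51 ± 0.05 SE, adjusted p = 0.00037), but its levels of 173, 130.2 and 98.4 CPM with TGFb1 and 247, 176 and 148 CPM untreated overlap and it was not called without the block (adjusted p = 0.29). The type I receptor gene Tgfbr1 was not called (log2 change −0.14, adjusted p = 0.076). Among receptors of the BMP side 2 were higher. Acvr1 had 80, 79.3 and 77.1 CPM with TGFb1 and 36.5, 40.6 and 39.9 CPM untreated, and Bmpr2 was 1.79-fold higher. The endothelial co-receptor gene Eng was 1.83-fold higher with the block, at an adjusted p of 0.084 without it. Acvr1b, Acvr2a, Acvr2b, Bmpr1a and Bmpr1b were not called (adjusted p = 0.27, 0.062, 0.28, 0.13 and 0.25).

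The SMAD genes split by role, with 5 higher and 1 lower of 7 tested (3 and 1 without the block). The inhibitory SMADs were higher: Smad7 had 78.4, 62.7 and 68.4 CPM in TGFb1 libraries, against 31.9, 22.9 and 20.4 CPM in untreated ones. Smad6 had 9.06, 7.81 and 7.199 CPM with TGFb1 and 3.65, 3.95 and 3.17 CPM untreated. Neither pair of groups overlapped, and the rises were 2.82-fold (log2 change 1.497 ± 0.09 SE, adjusted p = 6.4e-05) for Smad7 and 2.23-fold (log2 change 1.16 ± 0.11 SE, adjusted p = 0.00029) for Smad6. Of the SMADs that the TGF-beta receptor phosphorylates, Smad3 was lower, at 166, 155 and 140.2 CPM with TGFb1 and 241, 229 and 189 CPM untreated (log2 change −0.51 ± 0.05 SE, adjusted p = 0.00035), and Smad2 was not called (log2 change −0.11, adjusted p = 0.16). Of the SMADs of the BMP branch, Smad1 was 1.75-fold higher and Smad5 1.27-fold higher, Smad5 with overlapping groups. The shared partner Smad4 was 1.13-fold higher with the block; leaving out the first, the second or the third pair gave it an adjusted p of 0.045, 0.2 or 0.091. Without the block Smad4 and Smad5 were not called (adjusted p = 0.33 and 0.49).

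Genes listed as negative feedback of the pathway were higher in 9 of 12 tested members and lower in 0 (5 and 0 without the block). These counts take in Smad6 and Smad7, which were already counted among the SMAD genes above. Pmepa1, a membrane protein that keeps SMADs from the receptor, had 441, 439 and 441 CPM with TGFb1 and 137, 123 and 104 CPM untreated, so that the TGFb1 libraries were nearly equal and 3.65-fold above the untreated ones (log2 change 1.87 ± 0.08 SE, adjusted p = 1.7e-05). The SMAD co-repressor gene Skil rose 2.28-fold, to 376, 306 and 338 CPM, against 156, 150.4 and 139.8 CPM untreated, and its relative Ski rose 1.62-fold. The ubiquitin ligase gene Smurf1 rose 1.57-fold, and Smurf2 was 1.11-fold higher with an adjusted p of 0.035, or 0.13, 0.18 and 0.083 without the first, the second and the third pair. The co-repressor gene Tgif1 and the ubiquitin ligase gene Peli1 were 1.34-fold and 1.23-fold higher, with groups that overlapped. Ski, Tgif1, Smurf2 and Peli1 were not called without the block (adjusted p = 0.052, 0.13, 0.31 and 0.3), nor Peli1 without the second pair (adjusted p = 0.083). Tgif2, Nedd4l and Ppm1a were not called (adjusted p = 0.76, 0.33 and 0.47). In related ligand families, 3 of 5 tested activin and follistatin genes were higher and 0 lower (2 and 0 without the block, and 3 and 3 of 6 tested without the first pair). The activin subunit gene Inhba was higher, at 45.4, 72.99 and 92.99 CPM with TGFb1, against 20.04, 28.8 and 28 CPM untreated, and the activin-binding protein gene Fstl3 was 3.78-fold higher. Of 10 BMP and ID genes 4 were higher and 2 lower (2 and 0 without the block); Id1 rose 1.41-fold and Id2 fell 1.41-fold, both called with the block but not without it (adjusted p = 0.078 and 0.079), and Id2 was not called without the first pair (adjusted p = 0.058).

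Known TGF-beta target genes were higher in 23 of 28 tested members and lower in 2, with a median log2 change of 1.53 (18 and 0 without the block). Snai2 and Cdkn2b, the other 2 of the 30 listed, had no count in any of the 6 libraries and were not tested. Bhlhe40, a transcriptional repressor gene, had 545, 398 and 401 CPM with TGFb1 and 108, 59.5 and 57.3 CPM untreated. The AP-1 subunit gene Junb had 583, 709 and 778 CPM with TGFb1 and 162, 188 and 162 CPM untreated. The groups were clear of each other for both, with rises of 6.17-fold (log2 change 2.63 ± 0.10 SE, adjusted p = 1.7e-05) and 4.02-fold (log2 change 2.01 ± 0.09 SE, adjusted p = 2.1e-05). Other rises were in Tgfbi, a secreted matrix protein gene, at 5.94-fold, Acta2, the smooth muscle actin gene, at 8.23-fold on low levels of 1.402 to 4.22 CPM with TGFb1 and 0.1701 to 0.456 CPM untreated, Rhob, a small GTPase gene, at 2.97-fold, Sphk1, a lipid kinase gene, at 2.12-fold, and Tsc22d1, a TGF-beta-stimulated transcription factor gene, at 1.77-fold. Fibronectin (Fn1), a matrix glycoprotein gene, had 5037, 6287 and 6573 CPM with TGFb1 and 2920.1, 2834 and 2374 CPM untreated, a 2.197-fold rise (log2 change 1.14 ± 0.12 SE, adjusted p = 0.00077). The 2 members that were lower were Mmp13, a collagenase gene, and Hmga2, an architectural chromatin protein gene, at 1.98-fold and 1.52-fold lower. The level of Mmp13 was highest in the second pair and its groups overlapped, at 37.5, 85.2 and 7.302 CPM with TGFb1 and 60.1, 148 and 21.6 CPM untreated; without the block and without untreated replicate 2 its log2 change was 0.08. Mmp13, Hmga2, Klf10 and Angptl4 were called with the block alone (adjusted p without it = 0.68, 0.14, 0.29 and 0.42). Tagln, Cdkn1a and Pthlh were not called (adjusted p = 0.62, 0.18 and 0.051); for Cdkn1a, which encodes the cyclin-dependent kinase inhibitor p21, the pairs disagreed, with log2 ratios of 0.51, −1.28 and −1.14.

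**Figure D1:**
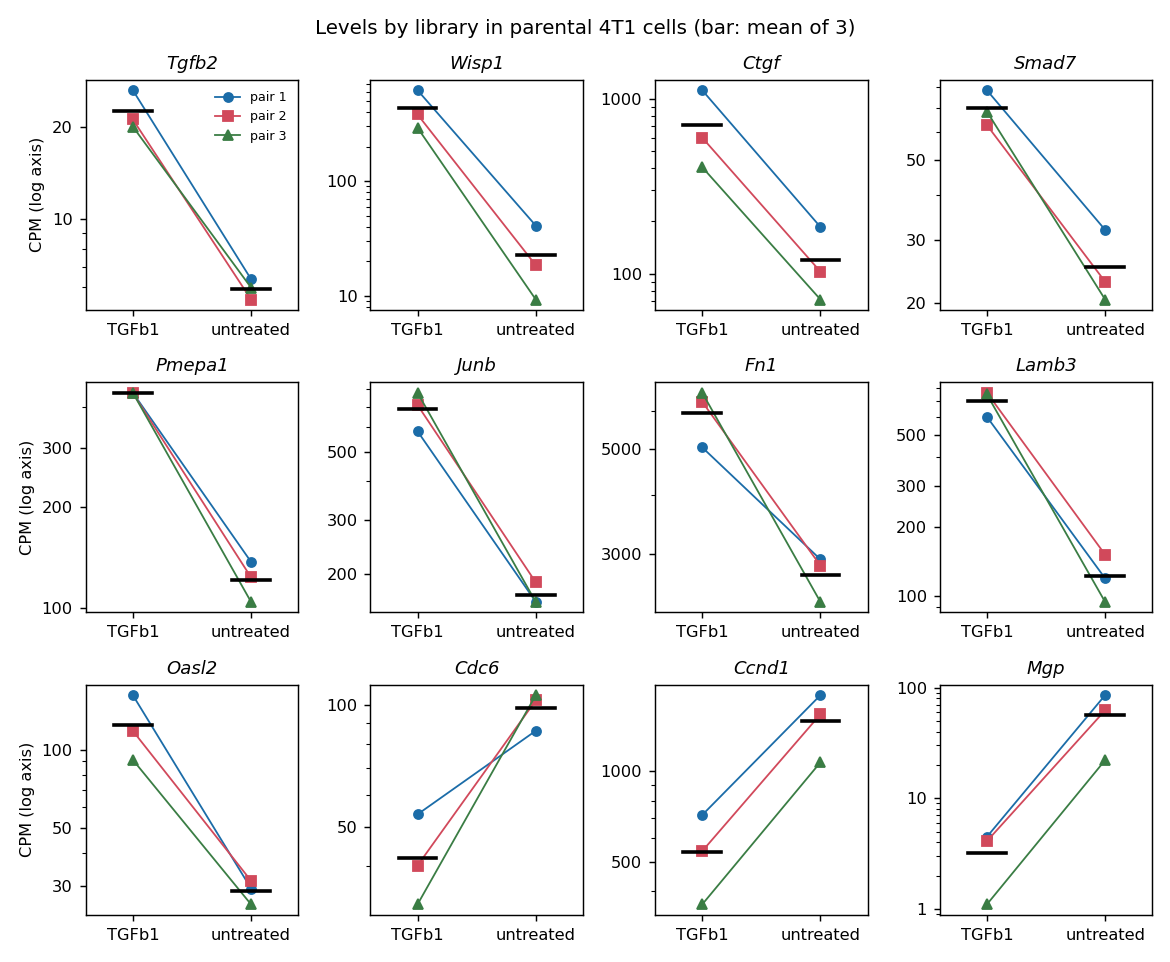
Levels of 12 genes in the 3 TGFb1 libraries (left of each panel) and the 3 untreated libraries (right), in CPM on a log axis; lines join the pairs that share a title code and bars are means of 3. For Tgfb2, Wisp1, Ctgf, Smad7, Pmepa1, Junb, Fn1, Lamb3 and Oasl2 each TGFb1 library lies above each untreated one, and for Cdc6, Ccnd1 and Mgp below it.

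The CCN family of matricellular proteins, to which Wisp1 belongs, had 5 tested members, 3 higher and 1 lower with and without the block. Wisp1 had 618, 380.4 and 291 CPM in TGFb1 libraries and 40.98, 18.5 and 9.32 CPM in untreated ones. Both groups ordered the pairs alike, with the first highest, and the rise within pairs was 21.02-fold (log2 change 4.39 ± 0.20 SE, adjusted p = 3.9e-05). Ctgf showed the same order of pairs, at 1118, 599.8 and 407 CPM with TGFb1 and 186, 103 and 71.6 CPM untreated, and its log2 ratio within pairs of 2.59, 2.54 and 2.51 varied little (log2 change 2.55 ± 0.05 SE, adjusted p = 3.9e-06). Cyr61 had 376, 434 and 281 CPM with TGFb1 and 106, 199 and 152 CPM untreated (log2 change 1.28 ± 0.17 SE, adjusted p = 0.0018). Its groups did not overlap, but without the second or the third pair its adjusted p was 0.083 or 0.073, and with no filter on low counts 0.078. Nov was lower on counts of 23, 20 and 9 with TGFb1, against 221, 122 and 112 untreated (log2 change −3.12 ± 0.22 SE, adjusted p = 8.5e-05), while Wisp2 missed the threshold (adjusted p = 0.33). A RefSeq promoter window (build GRCm38.p6, 250 bases before to 50 after the start of the gene) was at hand for Cyr61, listed there as Ccn1. It is shown because it holds letters of 2 kinds of site, GGAATG of TEAD factors and CAGAC of SMADs, in capitals on either strand:
Cyr61 chr3:145649936-145650235, minus strand: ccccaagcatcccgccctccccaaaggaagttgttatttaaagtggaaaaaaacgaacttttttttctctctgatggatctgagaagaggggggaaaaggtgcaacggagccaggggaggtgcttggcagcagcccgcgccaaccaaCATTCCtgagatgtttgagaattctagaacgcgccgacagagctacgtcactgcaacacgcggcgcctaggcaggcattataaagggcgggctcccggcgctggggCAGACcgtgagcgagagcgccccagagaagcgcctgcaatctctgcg
GGAATG was found on either strand in 7 of the 15 tested YAP and TAZ target genes with a window (46.7%) and in 14.7% of all 32851 windows. CAGAC, a short word, was found in 11 of 16 TGF-beta target genes with a window (68.8%) and in 49.6% of all windows, and the AP-1 word TGANTCA in 2 of these 16 (12.5%) and in 7.81% of all windows. Counted by gene, as for the members, the shares of the 10458 tested genes with a window were 14.5% (GGAATG), 52.6% (CAGAC) and 6.61% (TGANTCA). A match of letters is a description of a window and not a site of binding.

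The 10 largest rises and 10 largest falls were picked among genes called with the block, at a mean of at least 5 CPM. Their groups had to lie apart, and clone, predicted and Rik symbols were left out. All were also called without the block, which the choice of groups that lie apart favours. Smoc1, a secreted calcium-binding matrix protein gene, had 28.6, 51.8 and 89.3 CPM with TGFb1 and 0.678, 0.898 and 0.887 CPM untreated. Prss46, of the serine protease family, rested on few counts in the untreated libraries, with 1636, 1476 and 454 counts with TGFb1 and 34, 14 and 4 counts untreated, a rise of 68.7-fold. Others of these that rose were Fank1 (43.1-fold), the adaptor gene Sla (39.96-fold), the fibrillar collagen gene Col27a1 (25.8-fold), the arginase gene Arg1 (22.7-fold), Wisp1, Klhl30 (18.5-fold) and Hsd11b2, which encodes the enzyme that inactivates glucocorticoids (16.8-fold). Arg1 was higher in each pair, at 9.702, 16.2 and 28.7 CPM with TGFb1 and 0.591, 0.389 and 1.46 CPM untreated. The falls were led by Mgp, an inhibitor of calcification and of BMP signals, at 4.47, 4.09 and 1.095 CPM with TGFb1, against 85.5, 62.4 and 22.1 CPM untreated (log2 change −4.15 ± 0.10 SE, adjusted p = 3.9e-06). The integrin gene Itga8 was 17.4-fold lower, the ferlin gene Fer1l6 17.2-fold, the aldehyde dehydrogenase gene Aldh3a1 15.8-fold, Dio2, whose enzyme activates thyroid hormone, 15.01-fold, and the glycosyltransferase-like gene Galntl2 11.97-fold. Mmp3, the stromelysin gene, had 42.3, 72.99 and 11.3 CPM with TGFb1 and 437, 566 and 166 CPM untreated. The mast cell protease gene Mcpt8 was 10.4-fold lower, the kappa-casein gene Csn3 8.598-fold and the transcriptional coactivator gene Eya2 7.95-fold. Without the second pair Aldh3a1 was not called (adjusted p = 0.1), and without the first pair the log2 change of Klhl30 was 4.90, against 4.21 with all 3.

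**Figure D2:**
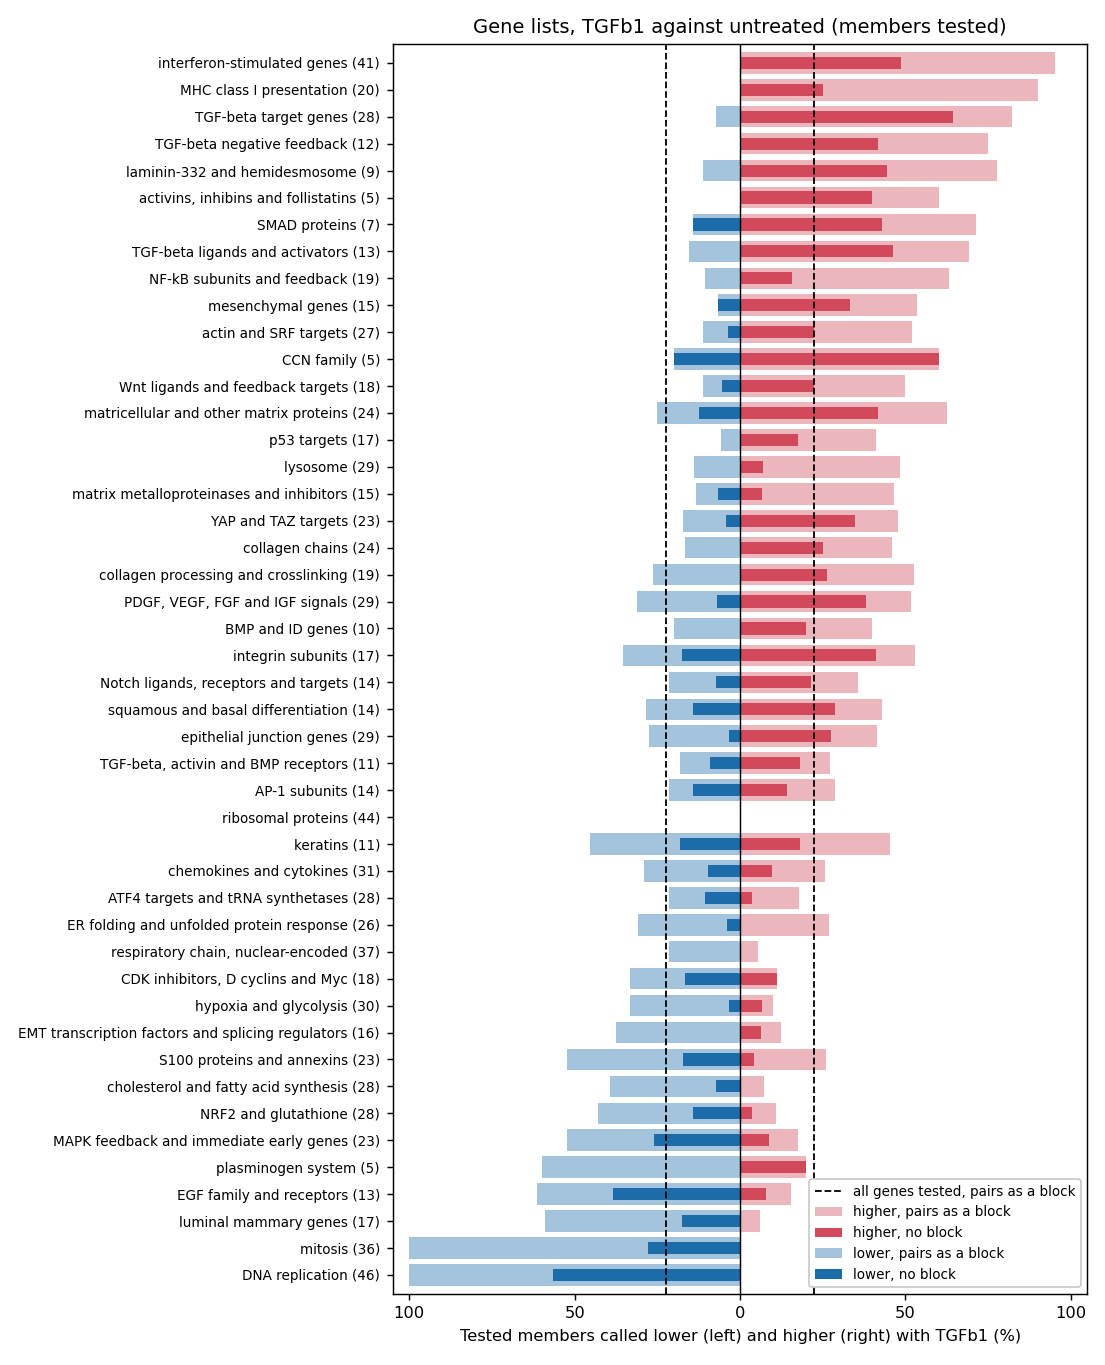
Share of the tested members of each gene list called higher (right, red) and lower (left, blue) with TGFb1 against untreated; pale bars are the fit with the pairs as a block, dark bars the fit without it, dashed lines the 22.4% and 22.5% of all genes tested, and numbers in brackets the members tested. Interferon-stimulated and MHC class I genes stand at the top, and DNA replication and mitosis genes at the bottom.

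In all, 912 of the 1088 genes of 50 lists passed the filter, which a gene can pass through 1 group alone, so counts of members are not counts over whole lists. A list whose shares lie near 22.4% and 22.5% does not stand out from all genes tested. Lists share members, such as Ctgf and Tgfb2, so counts of different lists are not separate results.

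Genes of laminin-332 and the hemidesmosome, which anchor basal epithelium to its basement membrane, were higher in 7 of 9 tested members and lower in 1 (4 and 0 without the block). Among them were chains of laminin-332. Lamb3 had 599.7, 763 and 749.7 CPM with TGFb1 and 119, 151 and 94.4 CPM untreated (log2 change 2.55 ± 0.14 SE, adjusted p = 7.4e-05). Lama3 had 66.04, 56.7 and 107 CPM with TGFb1 and 21.1, 18.3 and 21.6 CPM untreated (log2 change 1.86 ± 0.14 SE, adjusted p = 0.00023). The groups did not overlap for either gene. The laminin receptor chain Itga6 went the other way, at 157, 110.2 and 80.7 CPM with TGFb1 and 369, 281 and 181 CPM untreated, 2.38-fold lower with the block (log2 change −1.25 ± 0.06 SE, adjusted p = 1.6e-05) and not called without it (adjusted p = 0.056). Without the second pair 4 members were higher and 1 lower.

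Integrin chains changed in both directions, 9 higher and 6 lower of 17 tested (7 and 3 without the block). Itgb3, the beta chain of a vitronectin and fibronectin receptor, rose 7.701-fold, to 219, 242 and 159.6 CPM with TGFb1, against 29.5, 43.3 and 14.2 CPM untreated (log2 change 2.95 ± 0.19 SE, adjusted p = 0.00012). Itgb6 had 13.4, 8.27 and 5.18 CPM with TGFb1 and 3.75, 1.84 and 1.13 CPM untreated, which do not overlap (adjusted p = 0.062 without the block). Itga1, an alpha chain of a collagen receptor, was 2.74-fold lower (log2 change −1.45 ± 0.13 SE, adjusted p = 0.00025), and Itgb7 was 4.72-fold lower with the block and not called without it (adjusted p = 0.073). Itgb2 and Itgb8 were not called (adjusted p = 0.28 and 0.63).

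**Figure D3:**
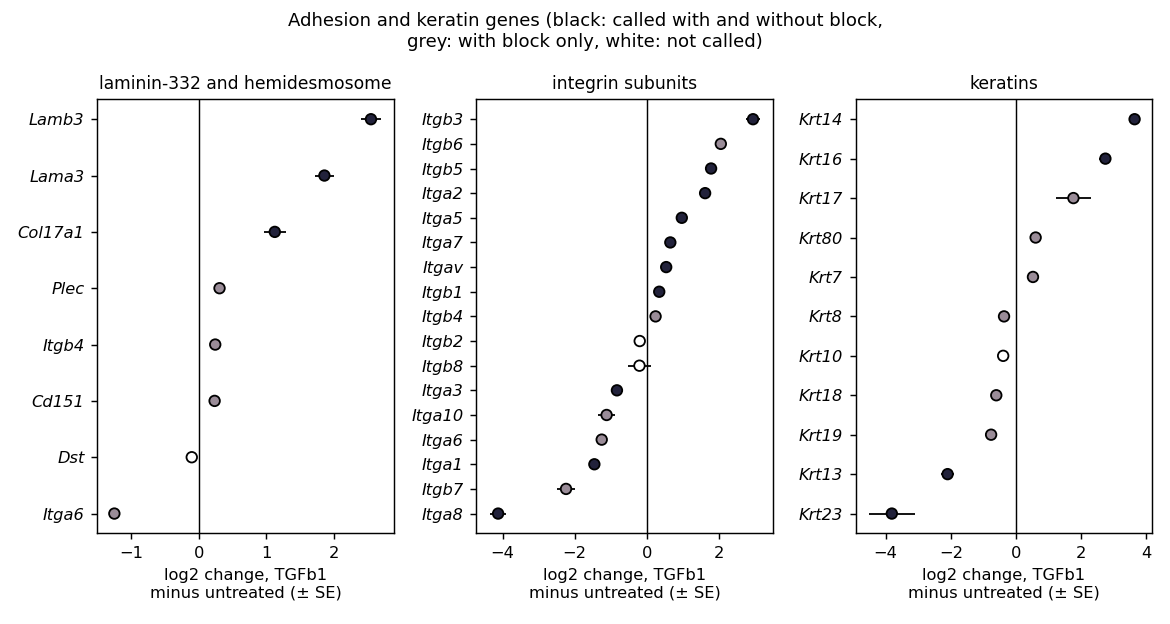
Log2 change (TGFb1 minus untreated, with SE) of laminin-332 and hemidesmosome genes, integrin subunits and keratins; black points were called with and without the block, grey points with the block and white points not. Lama3 lies at 1.86, Lamb3 at 2.55, Itga6 at −1.25, Krt14 at 3.65 and Krt8 at −0.37.

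Matrix genes were higher in larger numbers than lower. Of 24 tested collagen chain genes, 11 were higher and 4 lower (6 and 0 without the block), and of 24 matricellular and other matrix genes 15 were higher and 6 lower (10 and 3). Col12a1, which encodes a collagen on the surface of fibrils, had 38.4, 45.3 and 86.2 CPM with TGFb1 and 5.48, 2.33 and 7.51 CPM untreated (log2 change 3.50 ± 0.26 SE, adjusted p = 0.0002), and Col7a1, the anchoring fibril collagen, had 1129, 1585 and 1644 CPM with TGFb1 and 227, 353 and 355 CPM untreated (log2 change 2.23 ± 0.05 SE, adjusted p = 3.9e-06). Both were clear of their untreated levels, although Col12a1 had an adjusted p of 0.14 without the third pair. Col1a1, a chain of the main fibrillar collagen, had 16.3, 6.74 and 3.08 CPM with TGFb1 and 1.68, 0.817 and 0.535 CPM untreated. The basement membrane chain gene Col4a2 was 1.39-fold lower and Col4a5 1.29-fold lower (adjusted p = 0.016 and 0.0498 with the block, 0.5 and 0.29 without); Col4a2 lost its call without the second pair (adjusted p = 0.097) and Col4a5 without the first (adjusted p = 0.097). Tenascin C (Tnc), a matrix glycoprotein, had 101, 61.4 and 62.2 CPM with TGFb1, against 9.19, 4.53 and 3.26 CPM untreated (log2 change 3.80 ± 0.16 SE, adjusted p = 2.1e-05). Periostin (Postn) had 84.9, 67.3 and 45.5 CPM with TGFb1 and 13.3, 8.47 and 5.904 CPM untreated (log2 change 2.86 ± 0.09 SE, adjusted p = 6.2e-06). The basement membrane linker Nid1 was 4.14-fold lower (log2 change −2.05 ± 0.35 SE, adjusted p = 0.0049), and Fbln1 was 3.08-fold lower with the block but overlapped between groups and was not called without it (adjusted p = 0.3).

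Enzymes that build and cut the matrix were mixed. Of 19 collagen processing and crosslinking genes 10 were higher and 5 lower (5 and 0 without the block). The prolyl hydroxylase gene P4ha3 was 6.67-fold higher (log2 change 2.74 ± 0.29 SE, adjusted p = 0.00074), and the procollagen-processing genes Adamts14 and Pcolce were 2.94-fold and 2.59-fold lower with the block (adjusted p = 0.052 and 0.18 without it, and 0.075 for Pcolce without the second pair). Of 15 metalloproteinase and inhibitor genes 7 were higher and 2 lower (1 and 1 without the block). Mmp9, the gelatinase B gene, had 1587, 1284 and 532 CPM with TGFb1 and 258, 262 and 61.4 CPM untreated. The groups did not overlap, and the 6.37-fold rise was called with the block (log2 change 2.67 ± 0.15 SE, adjusted p = 8.2e-05) but not without it (adjusted p = 0.05038). Mmp14, the membrane-type metalloproteinase, rose 2.25-fold with the block (adjusted p = 0.061 without it), and Mmp3 and Mmp13 were the lower members (Mmp13 with the block alone, adjusted p = 0.68 without it). In the plasminogen system, which generates plasmin, 1 of 5 tested members was higher and 3 were lower (1 and 0 without the block). The lower ones were the activator genes Plau and Plat and the receptor gene Plaur. Plaur had 77.4, 70.3 and 45.5 CPM with TGFb1 and 124, 123 and 86.8 CPM untreated, with no overlap, whereas Plau had 386, 386 and 156 CPM with TGFb1 and 559, 681 and 333 CPM untreated, with overlap. These 3 falls of 1.76-fold (Plau), 1.97-fold (Plat) and 1.74-fold (Plaur) were called with the block (adjusted p = 0.0012, 0.0013 and 0.00014) and not without it (0.31, 0.5 and 0.085).

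Genes that mark epithelial to mesenchymal transition moved unevenly. Of 16 transition factors and splicing regulators 2 were higher and 6 lower (1 and 0 without the block). Snai1, a repressor of E-cadherin, had 41.6, 61.8 and 85.4 CPM with TGFb1 and 13.6, 18.1 and 18.9 CPM untreated (log2 change 1.86 ± 0.11 SE, adjusted p = 6.3e-05). Of other repressors of epithelial genes, Zeb1 and Zeb2 were not called (adjusted p = 0.087 and 0.41), and Twist1 was 1.47-fold lower with the block (adjusted p = 0.0045, or 0.1 without it). The epithelial splicing regulator gene Esrp1 was not called (adjusted p = 0.12), and Esrp2 was 1.36-fold higher with the block (adjusted p = 0.0072, or 0.075 without it and 0.059 without the second pair). E-cadherin (Cdh1) had 503, 447 and 311 CPM with TGFb1 and 466, 385 and 394 CPM untreated (log2 change −0.01 ± 0.11 SE, adjusted p = 0.97). Of 15 mesenchymal genes 8 were higher and 1 lower (5 and 1 without the block). Vimentin (Vim), the mesenchymal intermediate filament gene, was not among them, at 2539, 2111 and 1812 CPM with TGFb1 and 2822, 2096 and 2125 CPM untreated (log2 change −0.12 ± 0.06 SE, adjusted p = 0.13). S100a4, also a mesenchymal marker, was lower, at 753, 628 and 490.3 CPM with TGFb1 and 1172, 1179 and 979 CPM untreated (log2 change −0.85 ± 0.07 SE, adjusted p = 0.00023), and the fibronectin receptor chain Itga5 was 1.96-fold higher.

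Of 29 epithelial junction genes 12 were higher and 8 lower (8 and 1 without the block). Pkp1, a desmosomal plaque protein gene, had 64.02, 60.4 and 87.2 CPM with TGFb1 and 20.3, 15.6 and 31.7 CPM untreated (log2 change 1.69 ± 0.10 SE, adjusted p = 5.5e-05), and the claudin gene Cldn23 was 2.38-fold higher. Pard6b, a cell polarity gene, was lower and had 20.4, 22.6 and 11.9 CPM with TGFb1, against 49.4, 49.1 and 36.3 CPM untreated (log2 change −1.33 ± 0.10 SE, adjusted p = 0.00013), and Crb3, also of apical polarity, was 3.32-fold lower with the block (adjusted p = 0.006, or 0.068 without it and 0.059 without the second pair). The tight junction gene Ocln was 1.702-fold lower with the block (adjusted p = 0.033, or 0.32 without it); it lost the call without the first or the second pair (adjusted p = 0.097 and 0.13) and with DESeq2 (0.074).

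Of 11 tested keratin genes 5 were higher and 5 lower (2 and 2 without the block). Krt14, the keratin of basal cells, had 148, 82.5 and 91.1 CPM with TGFb1 and 14.1, 4.96 and 7.81 CPM untreated (log2 change 3.65 ± 0.13 SE, adjusted p = 1.6e-05), and Krt16, of activated keratinocytes, had 7.96, 4.596 and 8.91 CPM with TGFb1 and 1.44, 0.7905 and 0.935 CPM untreated (log2 change 2.75 ± 0.18 SE, adjusted p = 7.9e-05). The simple epithelial keratins Krt8 and Krt18 were 1.29-fold and 1.52-fold lower with the block. Their groups overlapped, at 1620.4, 1081 and 758 CPM with TGFb1 and 1910.1, 1412 and 1052 CPM untreated for Krt8, and they were not called without the block (adjusted p = 0.6 and 0.27). Krt13, of stratified epithelium, was 4.29-fold lower (log2 change −2.10 ± 0.20 SE, adjusted p = 0.0003). Counts of keratin genes, like those of other close paralogs below, are uncertain, since no source used here says how reads that match several places were counted. Of 14 squamous and basal differentiation genes 6 were higher and 4 lower (4 and 2 without the block). Sfn, which encodes the epithelial adaptor 14-3-3 sigma, had 285, 185 and 265 CPM with TGFb1 and 24.2, 22.3 and 22.1 CPM untreated (log2 change 3.40 ± 0.12 SE, adjusted p = 1.5e-05). The plakin gene Ppl and the kallikrein gene Klk10 were lower, at 3.61-fold and 4.92-fold, and Trp63, the master factor of basal cells, was not called (adjusted p = 0.076). Luminal mammary genes were lower in 10 of 17 tested members and higher in 1 (3 and 0 without the block). Areg, an EGF-family ligand gene of luminal cells, had 16.5, 23 and 15.9 CPM with TGFb1 and 43.3, 53.9 and 43.5 CPM untreated (log2 change −1.36 ± 0.07 SE, adjusted p = 3.1e-05). The luminal factor gene Foxa1 was 1.92-fold lower with the block (adjusted p = 0.072 without it), and Lcn2 4.23-fold lower, on levels of 9.57, 35.5 and 9.04 CPM with TGFb1 and 44.1, 183 and 27.9 CPM untreated that overlap and were highest in the second pair (adjusted p = 0.00015, or 0.17 without the block).

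Genes of growth factor and kinase signalling also shifted. EGF-family ligands and receptors were lower in 8 of 13 tested members and higher in 2 (5 and 1 without the block). The receptor gene Egfr was higher, at 28.6, 21.9 and 18.5 CPM with TGFb1 and 5.98, 3.34 and 1.77 CPM untreated (log2 change 2.75 ± 0.21 SE, adjusted p = 0.00021), while its ligand gene Btc was lower, at 1.78, 1.29 and 0.92 CPM with TGFb1 and 9.27, 7.46 and 5.03 CPM untreated (log2 change −2.45 ± 0.12 SE, adjusted p = 2.1e-05). Immediate early genes and feedback inhibitors of MAP kinase signalling were lower in 12 of 23 and higher in 4 (6 and 2 without the block). Egr1, an immediate early factor gene, had 9.65, 18.2 and 7.39 CPM with TGFb1 and 39.9, 42.8 and 25.4 CPM untreated (log2 change −1.68 ± 0.16 SE, adjusted p = 0.00044), and Egr3 was 4.24-fold lower. The phosphatase gene Dusp2 moved against them, at 10.9, 4.098 and 9.23 CPM with TGFb1 and 0.986, 1.11 and 0.8504 CPM untreated (log2 change 2.95 ± 0.33 SE, adjusted p = 0.00082). Of 14 AP-1 subunit genes 4 were higher and 3 lower (2 and 2 without the block): Junb rose, whereas Fosl1 had 25.2, 34.2 and 29.5 CPM with TGFb1, against 110.3, 151 and 144 CPM untreated (log2 change −2.19 ± 0.06 SE, adjusted p = 4.8e-06), and Jun was 2.37-fold lower.

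Genes of secreted angiogenic and mesenchymal growth factors were higher in 15 of 29 and lower in 9 (11 and 2 without the block). Vegfa, the main angiogenic factor, had 239.9, 309.5 and 283 CPM with TGFb1 and 46.5, 52.1 and 34.3 CPM untreated (log2 change 2.66 ± 0.13 SE, adjusted p = 5e-05). Vegfc, a lymphatic growth factor, was 5.09-fold higher, Pdgfc 5.001-fold and the endothelin gene Edn1 4.28-fold. The growth factor-binding protein gene Igfbp4 was lower, at 393, 486 and 372 CPM with TGFb1 and 906, 1032 and 845 CPM untreated (log2 change −1.16 ± 0.05 SE, adjusted p = 1.5e-05), and Angpt1 was 2.13-fold lower with the block and not called without it (adjusted p = 0.31).

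Of 23 YAP and TAZ target genes, which respond to cell shape and matrix stiffness, 11 were higher and 4 lower (8 and 1 without the block). Beside Ctgf and Tgfb2, the stress gene Gadd45b rose 3.68-fold and the junction gene Amotl2 2.51-fold; Axl, a receptor kinase gene, was 1.61-fold lower with the block (adjusted p = 0.057 without it). Of 27 actin and SRF target genes 14 were higher and 3 lower (6 and 1 without the block), with the adaptor genes Pdlim7 and Fblim1 2.21-fold and 2.099-fold higher and the filamin gene Flnc 1.76-fold lower. Of 18 Wnt ligand and feedback genes 9 were higher and 2 lower (4 and 1). Wnt9a, a ligand gene, had 144, 82.4 and 74.4 CPM with TGFb1 and 16.2, 9.89 and 14.8 CPM untreated (log2 change 2.85 ± 0.17 SE, adjusted p = 9.1e-05). Wnt11 had 7.48, 6.24 and 8.98 CPM with TGFb1 and 0.579, 0.442 and 0.304 CPM untreated (log2 change 4.09 ± 0.24 SE, adjusted p = 5e-05). The secreted Wnt antagonist gene Sfrp1 was 2.04-fold lower. Of 14 Notch pathway genes 5 were higher and 3 lower (3 and 1 without the block). The ligand gene Jag1 had 316, 278 and 280.4 CPM with TGFb1 and 42.7, 44.7 and 35.98 CPM untreated (log2 change 2.83 ± 0.08 SE, adjusted p = 5.1e-06). The receptor gene Notch4 had 36.8, 25.6 and 6.47 CPM with TGFb1 and 4.78, 3.43 and 0.948 CPM untreated, 7.38-fold higher with the block and not called without it (adjusted p = 0.065). The Notch target gene Nrarp was 2.97-fold lower (log2 change −1.57 ± 0.14 SE, adjusted p = 0.00042).

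Interferon-stimulated genes were higher in 39 of 41 tested members and lower in 0, with a median log2 change of 1.27. Without the block 20 were higher and 0 lower. Without the first or the second pair 33 or 30 of 41 were higher and 0 lower. Without the third pair 37 of 42 were higher and 1 lower, and with no filter on low counts 31 of 42 were higher and 1 lower. These genes encode sensors and effectors of antiviral defence and usually follow interferon. Zbp1, a nucleic acid sensor gene, had 21.5, 12.6 and 11.5 CPM with TGFb1 and 3.13, 1.94 and 2.36 CPM untreated (log2 change 2.59 ± 0.13 SE, adjusted p = 2.1e-05). Oasl2, of the oligoadenylate synthetase family, had 162, 118 and 91.3 CPM with TGFb1 and 29.2, 31.3 and 25.4 CPM untreated (log2 change 2.08 ± 0.13 SE, adjusted p = 0.00011). Ifi44 had 32.3, 8.52 and 11.04 CPM with TGFb1 and 4.97, 2.22 and 2.96 CPM untreated (log2 change 2.20 ± 0.18 SE, adjusted p = 0.00022, and an adjusted p of 0.04951 without the block). The TGFb1 libraries were above the untreated ones in each, and the first was the highest. Mx2 rose 5.47-fold with the block on overlapping groups (adjusted p = 0.1 without it), and Ifit2 and Gbp6 were not called (adjusted p = 0.96 and 0.56).

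The MHC class I presentation genes, a group that interferon also raises, were higher in 18 of 20 and lower in 0, by a smaller median of 0.51 (5 and 0 without the block). Without the first, the second and the third pair 16, 15 and 19 were higher and 0 lower. Tapbp, whose protein loads peptide onto class I molecules, had 388, 368 and 367 CPM with TGFb1 and 203, 187 and 210.5 CPM untreated (log2 change 0.91 ± 0.05 SE, adjusted p = 4.7e-05). The immunoproteasome gene Psmb10 was 1.79-fold higher and H2-T23, a class Ib gene, 1.93-fold higher. Cd1d1 rose 2.37-fold with the block, on levels of 10.4, 20.99 and 52.2 CPM with TGFb1 and 4.92, 8.07 and 21.9 CPM untreated that were highest in the third pair in both groups and overlapped (adjusted p = 0.36 without the block). Interferon and MHC genes are rich in close paralogs, so single counts there are uncertain.

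Promoter windows of the interferon-stimulated genes were searched on both strands for the core letters of the interferon-stimulated response element (ISRE): GAAA, any 2 bases, and GAAA again. It was found in 17 of the 30 tested members with a window (56.7%) and in 3.44% of all 32851 windows. Counted by gene, as for the members, it was found in 3.65% of the 10458 tested genes with a window. Windows of 2 guanylate-binding protein genes are shown as examples that hold it; capitals mark the matches, and those of Gbp3 overlap each other:
Gbp3 chr3:142559794-142560093, plus strand: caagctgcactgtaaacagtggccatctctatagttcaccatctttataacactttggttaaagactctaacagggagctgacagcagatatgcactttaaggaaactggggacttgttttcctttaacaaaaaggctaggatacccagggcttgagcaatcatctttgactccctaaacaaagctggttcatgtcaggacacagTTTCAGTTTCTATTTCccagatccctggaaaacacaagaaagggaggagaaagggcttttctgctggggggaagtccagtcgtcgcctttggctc
Gbp2 chr3:142620413-142620712, plus strand: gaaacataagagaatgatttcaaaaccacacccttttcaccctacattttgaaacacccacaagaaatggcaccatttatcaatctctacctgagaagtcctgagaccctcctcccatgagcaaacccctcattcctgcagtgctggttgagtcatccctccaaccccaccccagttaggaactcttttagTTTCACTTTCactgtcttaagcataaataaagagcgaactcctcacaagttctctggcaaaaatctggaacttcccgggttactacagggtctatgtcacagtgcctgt
Gbp2 had 78.2, 75.3 and 99.3 CPM with TGFb1 and 23.3, 18.8 and 29.3 CPM untreated (log2 change 1.83 ± 0.07 SE, adjusted p = 1.3e-05). Gbp3 had 45.1, 23.7 and 33.5 CPM with TGFb1 and 10.1, 7.15 and 10.4 CPM untreated (log2 change 1.86 ± 0.11 SE, adjusted p = 5e-05). These genes and the other printed windows were chosen with their values known.

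Cytokine genes changed in both directions, at shares near those of all genes. Of 31 tested, 8 were higher and 9 lower (3 and 3 without the block). Tslp, an epithelial cytokine gene, had 27.2, 44.99 and 18.3 CPM with TGFb1 and 149.5, 181 and 90.4 CPM untreated (log2 change −2.25 ± 0.09 SE, adjusted p = 1.6e-05). The neutrophil chemokine genes Cxcl5 and Cxcl1 were 5.15-fold and 2.99-fold lower with the block; Cxcl1 had overlapping groups, with the second pair highest, and was not called without the block (adjusted p = 0.19). Cxcl16, a transmembrane chemokine gene, was 2.17-fold higher (log2 change 1.12 ± 0.05 SE, adjusted p = 2.1e-05). Il11, a cytokine gene that TGF-beta raises in bone metastasis, had 1.86, 4.596 and 8.12 CPM with TGFb1 and 0.813, 1.58 and 1.38 CPM untreated, 3.5-fold higher with the block (adjusted p = 0.077 without it). Of 19 NF-kB subunit and feedback genes 12 were higher and 2 lower (3 and 0 without the block, and 8 and 2 without the second pair). The inhibitor gene Nfkbie rose 1.799-fold, and Tnfaip2 was 2.11-fold lower with the block (adjusted p = 0.12 without it).

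DNA replication genes were lower in 46 of 46 tested members with the block and in 26 without it, with a median log2 change of −0.83 and members between −1.51 and −0.47. Without the first, the second and the third pair 46, 41 and 45 were lower, and with no filter on low counts 43. Without the block and with 1 library left out, 3 to 45 were lower. Cdc6, which loads the replicative helicase, had 53.7, 40.1 and 32.2 CPM with TGFb1 and 86.3, 103 and 106 CPM untreated (log2 change −1.25 ± 0.18 SE, adjusted p = 0.0025). The groups did not overlap, though Cdc6 had an adjusted p of 0.12 without the second pair and 0.081 with no filter on low counts. Uhrf1, which takes part in the copying of DNA methylation, had 182, 92.6 and 77.1 CPM with TGFb1 and 342, 246 and 236 CPM untreated (log2 change −1.31 ± 0.13 SE, adjusted p = 0.00055). Tk1, the thymidine kinase of S phase, fell 2.85-fold, the largest fall of the list, on groups that overlapped: 109, 40.4 and 20.7 CPM with TGFb1 and 218, 129 and 75.98 CPM untreated. The repair glycosylase gene Ung was 2.25-fold lower. Uhrf1, Tk1 and Ung were not called without the block (adjusted p = 0.069, 0.27 and 0.13).

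E2F factors drive many replication genes at the start of S phase. Promoter windows were searched on both strands for 4 forms of their site, TTTCCCGC, TTTGGCGC, TTTCGCGC and TTTGCCGC. At least 1 was found in 15 of the 37 tested replication genes with a window (40.5%) and in 2.26% of all windows. Counted by gene, as for the replication genes, at least 1 was found in 4.74% of all tested genes with a window. The windows of Cdc6 and Mcm3, a subunit of the replicative helicase, are printed as examples, with matches in capitals:
Cdc6 chr11:98907901-98908200, plus strand: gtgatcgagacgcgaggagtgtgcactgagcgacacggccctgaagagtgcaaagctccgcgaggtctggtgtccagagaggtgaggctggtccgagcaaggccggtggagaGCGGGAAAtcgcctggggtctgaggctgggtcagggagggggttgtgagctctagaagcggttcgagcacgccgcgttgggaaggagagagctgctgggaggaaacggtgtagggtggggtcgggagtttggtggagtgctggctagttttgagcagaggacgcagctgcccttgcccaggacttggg
Mcm3 chr1:20820263-20820562, minus strand: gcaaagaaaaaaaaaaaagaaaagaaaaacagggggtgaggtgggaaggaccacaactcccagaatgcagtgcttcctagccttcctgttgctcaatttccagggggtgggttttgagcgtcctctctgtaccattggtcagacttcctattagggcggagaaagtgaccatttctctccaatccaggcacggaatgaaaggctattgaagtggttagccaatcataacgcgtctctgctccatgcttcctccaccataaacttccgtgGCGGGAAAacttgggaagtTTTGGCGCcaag
Mcm3 had 203, 138 and 122 CPM with TGFb1 and 358, 292 and 279 CPM untreated (log2 change −1.03 ± 0.08 SE, adjusted p = 0.00012; adjusted p = 0.029 without the block).

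Mitosis genes were lower in 36 of 36 tested members with the block, with a smaller median of −0.54, and in 10 without it. Without the first, the second and the third pair 35, 34 and 36 were lower. Without the block and with 1 library left out, 0 to 22 were lower. Anln, a scaffold of the cleavage furrow, had 414, 286 and 249.9 CPM with TGFb1 and 718, 602 and 508 CPM untreated (log2 change −0.96 ± 0.06 SE, adjusted p = 7.7e-05). The kinase genes Aurkb and Cdk1 were 1.76-fold and 1.68-fold lower and the survivin gene Birc5 1.84-fold lower with the block (adjusted p = 0.083, 0.079 and 0.33 without it). Of 18 genes for CDK inhibitors, D cyclins and Myc relatives, 2 were higher and 6 lower (2 and 3 without the block). The inhibitor genes Cdkn2a and Cdkn2b had no count in any parental library. The cyclin D1 gene Ccnd1 had 716, 543 and 361 CPM with TGFb1, against 1794, 1549 and 1073 CPM untreated (log2 change −1.47 ± 0.06 SE, adjusted p = 1.4e-05), and its partner kinase gene Cdk6 was 1.96-fold lower. Mxd4, an antagonist of Myc, had 78.7, 76.3 and 96.4 CPM with TGFb1 and 33.9, 28.5 and 36.7 CPM untreated (log2 change 1.34 ± 0.07 SE, adjusted p = 2.1e-05). Myc was not called, at 172, 193 and 166 CPM with TGFb1 and 201, 166 and 154 CPM untreated (adjusted p = 0.79), nor was the inhibitor gene Cdkn1b (adjusted p = 0.15). Of 17 p53 target genes 7 were higher and 1 lower (3 and 0 without the block; 6 and 3 without the first pair). The stress gene Gadd45a had 205, 169 and 196 CPM with TGFb1 and 49.02, 36.4 and 36.9 CPM untreated (log2 change 2.23 ± 0.08 SE, adjusted p = 9.4e-06), and Fas, the death receptor gene, and Plk2 were 4.62-fold and 3.46-fold higher.

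**Figure D4:**
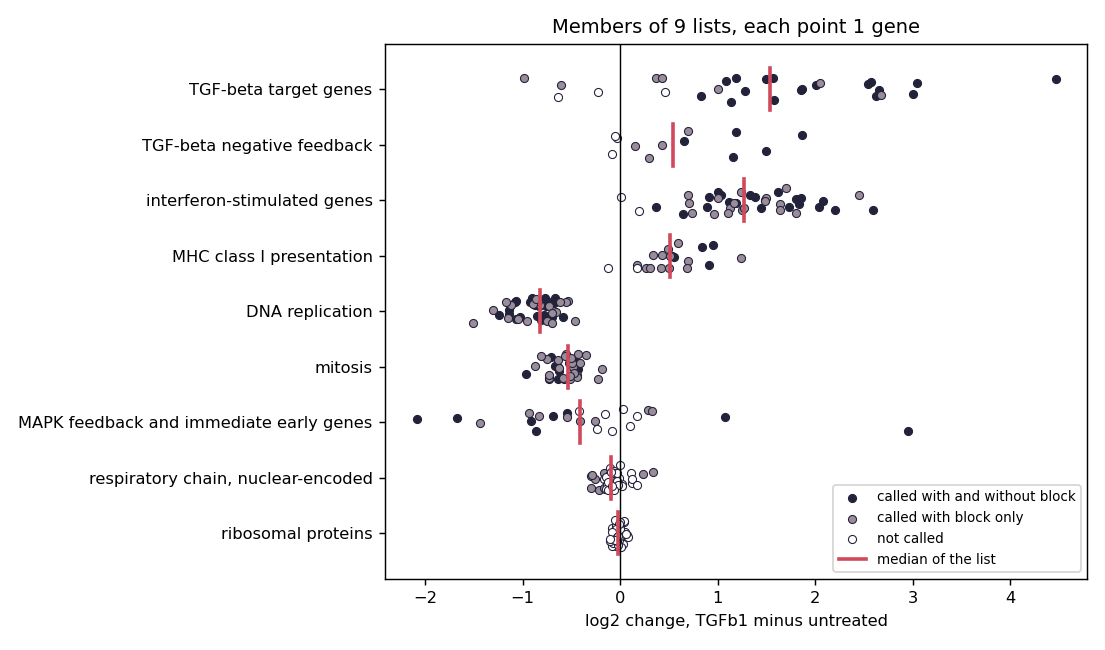
Log2 change (TGFb1 minus untreated) of each tested member of 9 lists; black points were called with and without the block, grey points with the block and white points not, and red lines are list medians. DNA replication and mitosis genes all lie below 0 and ribosomal protein genes at about 0, with none called.

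Ribosomal protein genes did not pass the test. Of 44 ribosomal protein genes 0 were called with the block and 0 without it, and their log2 changes ran from −0.11 to 0.07. Of 37 nuclear-encoded respiratory chain genes 2 were higher and 8 lower (0 and 0 without the block; 1 and 3 without the second pair), between −0.30 and 0.33. Scaled by library totals alone, 2 of them were higher and 13 lower. Of 29 lysosomal genes 14 were higher and 4 lower (2 and 0 without the block; 10 and 2 without the second pair), with Sqstm1, an autophagy receptor gene, 1.58-fold higher and the cathepsin gene Ctsl 1.99-fold lower with the block (adjusted p = 0.053 without it).

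Metabolic and stress lists held a few large changes. NRF2 and glutathione genes, of the antioxidant defence, were lower in 12 of 28 and higher in 3 (4 and 1 without the block): the glutathione transferase gene Gstm1 had 3.33, 2.23 and 1.31 CPM with TGFb1 and 16.4, 15.02 and 8.75 CPM untreated (log2 change −2.58 ± 0.13 SE, adjusted p = 2.2e-05), the cystine transporter gene Slc7a11 was 2.13-fold lower, and the haem oxygenase gene Hmox1 moved against them, 2.89-fold higher. Of 28 cholesterol and fatty acid synthesis genes 2 were higher and 11 lower (0 and 2 without the block), with Dhcr7 and Elovl6 2-fold and 1.98-fold lower. Of 30 hypoxia and glycolysis genes 3 were higher and 10 lower (2 and 1 without the block; 3 and 6 without the second pair). Egln3, an oxygen-sensing hydroxylase gene, had 15.2, 19.6 and 11.1 CPM with TGFb1 and 88.7, 96.8 and 104.6 CPM untreated (log2 change −2.68 ± 0.18 SE, adjusted p = 0.00014), against the rise of Vegfa in the same list. Of 28 ATF4 target and tRNA synthetase genes 5 were higher and 6 lower (1 and 3 without the block; 8 and 6, 2 and 5, and 3 and 5 without the first, the second and the third pair). Ddit4, an inhibitor of mTOR signalling, had 285, 350.4 and 417 CPM with TGFb1 and 79.3, 76.4 and 74.3 CPM untreated (log2 change 2.18 ± 0.12 SE, adjusted p = 7.3e-05), and the serine synthesis gene Psat1 was 1.8-fold lower. Of 26 endoplasmic reticulum folding genes 7 were higher and 8 lower (0 and 1 without the block; 3 and 11 without the first pair and 5 and 5 without the second), with the sensor gene Atf6 1.73-fold lower with the block (adjusted p = 0.27 without it). Of 23 S100 and annexin genes 6 were higher and 12 lower (1 and 4 without the block; 3 and 10, 2 and 8, and 3 and 10 without the first, the second and the third pair). Anxa8 had 351, 241 and 107 CPM with TGFb1, against 35.5, 11.5 and 6.33 CPM untreated (log2 change 3.90 ± 0.21 SE, adjusted p = 7e-05; adjusted p = 0.11 without the third pair).

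Since Wisp1 was higher with TGFb1, the response to TGFb1 was set beside that of a line with a Wisp1 vector, in a fit of 12 libraries with the parental groups and the Wisp1 and EV lines on plastic (37552858 to 59568523 gene counts in the Wisp1 line and 41761010 to 77748072 in the EV line). The 2 comparisons share no library, and the block in the lines was the replicate number of their titles. In this fit Wisp1 itself had 609, 375 and 287 CPM in TGFb1 and 39.6, 18.04 and 9.14 CPM in untreated cells, and 895, 905 and 1065 CPM in the Wisp1 line and 36.7, 46.3 and 71.9 CPM in the EV line. The log2 change was 4.40 ± 0.22 SE for TGFb1 and 4.25 ± 0.22 SE for the Wisp1 line, with an uncalled difference of 0.15 ± 0.28 SE (adjusted p = 0.72). The counts do not separate transcripts of the vector from those of the cell's own gene. Of 15014 genes tested, 3 (0.02%) were called between the Wisp1 and EV lines, Wisp1, Akap12 and Calr, the last 2 named after their values were seen, and 1060 had an unadjusted p under 0.05. Without the first, the second or the third pair 0, 1 or 2 genes were called. Without the block 0 were called and 127 had an unadjusted p under 0.05.

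The difference between the 2 responses was called for 6067 genes (40.4%), or 1926 without the block and 3391 without the second pair. TGFb1 against untreated was called for 8154 genes (54.3%) in the same fit, and for 5877 of these the difference was called as well. Ctgf differed by 2.67 ± 0.06 SE (adjusted p = 1.9e-08), with a log2 change of −0.11 in the Wisp1 line, and Smad7 by 1.37 ± 0.12 (adjusted p = 3.6e-05) with 0.14. Cyr61 differed with the block (adjusted p = 0.0082) and not without it (0.084), and so did Col1a1 (0.0013 and 0.059). The difference was called for 46 of 46 DNA replication genes, 25 of 28 TGF-beta target genes and 30 of 41 interferon-stimulated genes. In the Wisp1 line the median log2 changes of these lists were 0.02, 0.03 and −0.03, and 0, 0 and 0 of their members were called. The parental cells had a change of medium and a set time, and the lines were sampled while subconfluent after selection, so cell line, culture and library set cannot be told apart from the agent in this difference.

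**Figure D5:**
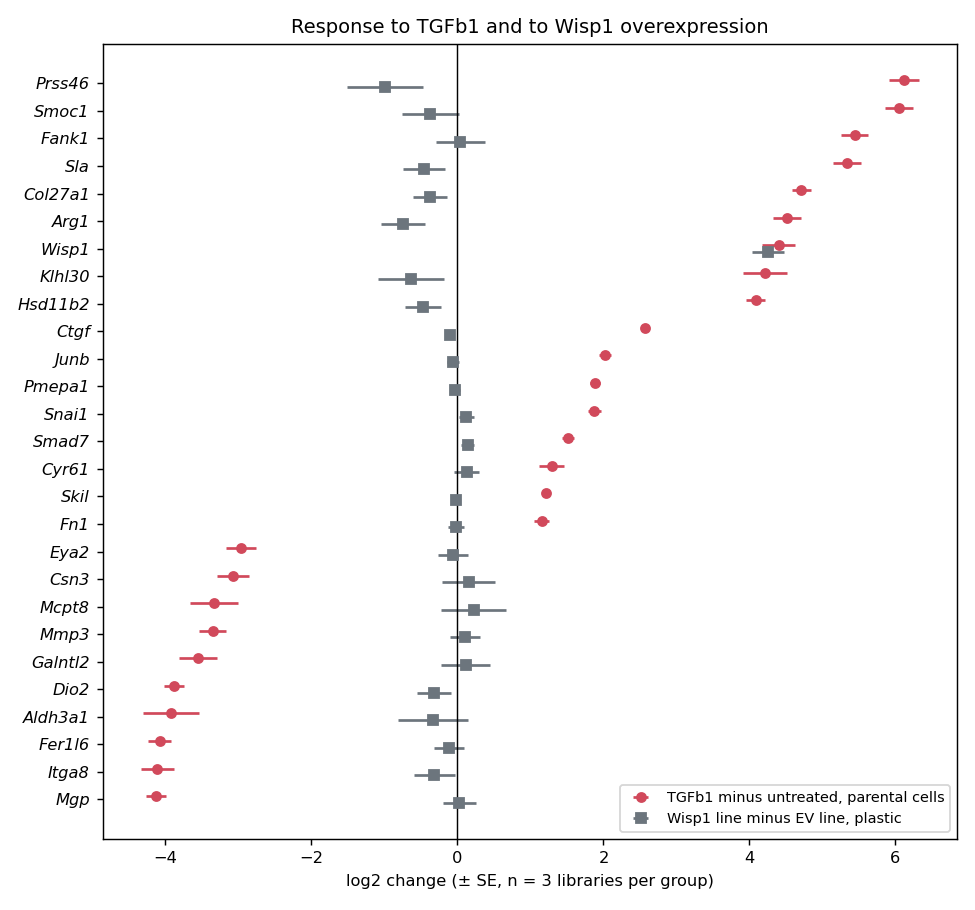
Log2 change with SE of 9 of the 10 largest rises and the 10 largest falls with TGFb1 and of 8 other genes, in parental cells (red circles, TGFb1 minus untreated, n = 3 libraries per group) and on plastic (grey squares, Wisp1 line minus EV line, n = 3 per group). The 2 symbols meet at Wisp1 and lie apart at the other genes.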

How the data were processed

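Poly(A) RNA of 4T1 cells was sequenced with a stranded kit, per the labels' protocols. The deposited files give whole-number counts per gene symbol, not normalized. Tools listed, per the submitters' processing notes, are HTSeq, STAR, BWA, CASAVA, limma and R 3.2.4, with build mm9 and no roles. Which annotation and strand setting gave the counts is not stated. Rows that name no gene were dropped; reads outside genes made up 10.3% to 13.5% in the 6 parental libraries. Within groups, counts differed by more than sampling noise (chi-square per degree of freedom 78.91 to 197.6), so no library repeats another.

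Genes were kept by filterByExpr, scaled by TMM and tested with edgeR 4.0.16 (R 4.3.3, limma 3.58.1) with the title code as a block in the parental libraries and the replicate number of the titles as a block in the Wisp1 and EV lines, Benjamini-Hochberg adjusted per comparison. Same-coded TGFb1 and untreated libraries deviated together (r = 0.789, 0.547 and 0.776). Same-numbered Wisp1 and EV libraries, which share a number and no stated code, did so less (r = 0.151, 0.246 and 0.28, each over the minimum of 0.1 set for pairing). SE is the log2 change divided by the root of F. On simulated data the blocked test found most changed genes of 2-fold or more, but its share of false calls was above the nominal level, so its borderline calls are uncertain. Far fewer genes were changed in the simulation than were called here, so the simulated share of false calls does not give that of these data. Alternatives were no block, DESeq2 1.42.0 size factors, library totals, no or a stricter filter (1 CPM), DESeq2, limma-voom and leaving out a pair or a library.

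Named genes were the 10 largest rises and falls (called, mean of at least 5 CPM, groups apart), all measured core pathway, target and CCN genes, and from other lists up to 4 called genes of largest change and 2 against the majority (mean of at least 1 CPM). Gbp2, Gbp3 and Mcm3 lie outside this rule, and 2 genes inside it are not reported here. Members and lists were chosen with earlier results of these data known. Sequences are from RefSeq, GRCm38.p6, and share no coordinates with the counts.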

Additional observations from a re-analysis of the deposited data

How the results depend on the processing

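TGFb1 against untreated gave 1645 calls without the block, against 6672 with it, and 4344 to 6344 calls with the block when 1 of the 3 pairs was left out (4344 without the second). Without the block and with 1 library left out it gave 1430, 517 and 981 calls (TGFb1 replicate 1, 2 or 3) and 1018, 380 and 908 calls (untreated replicate 1, 2 or 3). With the block, DESeq2 size factors, library totals, no filter, a stricter filter, DESeq2 and limma-voom gave 6089 to 6783 calls. The difference between the TGFb1 and Wisp1 responses gave 6067 calls, 1926 without the block and 3391 to 5331 with a pair left out. The Wisp1 line against EV gave 3 calls, 0 without the block, 7 with no filter on low counts and 0 to 2 with a pair left out. Of 590 list and named genes called with the block, 250 were called without it, 537, 484 and 553 without the first, the second and the third pair, and 575 with DESeq2. No called gene of these changed sign in any fit with the block. Without the block and with 1 library left out, 1, 1 and 6 changed sign (TGFb1 replicate 1, 2 or 3) and 4, 4 and 0 (untreated replicate 1, 2 or 3). Of the genes named above, Mmp13 changed sign in 1 fit, to a log2 change of 0.0842 without the block and without untreated replicate 2. The cause of these differences was not tested. Counts of a few reads per library limit folds such as those of Prss46 and Nov.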
